A study of Homo sapiens with 20 samples.

Results

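Human breast cancer cells of the mesenchymal-like line MDA-MB-231 were heated to 54 or 50 °C by a laser acting on nanoparticles, and the step between these temperatures was measured across all genes of a 3′ end sequencing table. The samples were chosen by their labels. The 4 libraries labelled laser 54 °C were set against the 4 labelled laser 50 °C, which makes 8 of the 20 libraries of the series. Cells of both groups had been held for 4 h with biomimetic nanoparticles at 0.1 mg/ml, and wells were then lit singly for 10 min with an 808 nm continuous wave laser before a wash and lysis. The other 3 groups, of 4 libraries each, were cells left untreated, cells given the particles but no light (nanoparticles alone) and cells lit at 46 °C. A pair of wells was pooled for each RNA sample. Separate cultures for the replicates are not stated, so each p-value refers to the spread between these libraries and that spread may be technical. Heat and light cannot be told apart, because cells lit in the absence of particles were not analysed here. The time between the laser and lysis is not given in the sources used here.

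Cells answer moderate heat by switching on chaperone genes through the transcription factor HSF1, and stronger heat can stop transcription, splicing and the maturation of ribosomal RNA. Once transcription stops, an mRNA level follows its decay, so that short-lived mRNAs are lost sooner than stable ones. Heterogeneous nuclear ribonucleoproteins (hnRNPs) coat nascent RNA and guide its splicing and export. Small nucleolar RNAs (snoRNAs) guide the chemical modification and cutting of ribosomal RNA, and most are cut out of introns of host transcripts.

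Total counts ran from 6154155 to 7710977 per library at 54 °C and from 3884834 to 4382962 at 50 °C, a ratio of mean depth of 1.64. Markers of the mesenchymal-like line, such as VIM and CD44, summed to 5360 to 5960 CPM (a gene's count scaled to a common library size) in the libraries at 54 °C and 5550 to 5720 CPM at 50 °C. Luminal breast markers summed to 526 to 596 CPM at 54 °C and 426 to 633 CPM at 50 °C, with 5 of 14 at 0 in all libraries of each group. Markers of macrophages and blood cells summed to 14 to 19.4 CPM at 54 °C and 6.39 to 14.8 CPM at 50 °C, with 9 of 16 at 0 in all libraries of each group. Replicates 1 and 2 stood apart from replicates 3 and 4, a division that was found in the data and that the labels do not explain. The fit therefore holds a term for this replicate pair.

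Between 54 and 50 °C few genes changed, and the falls were larger than the rises. Of 12149 tested genes, 33 were higher at 54 °C (0.272%) and 36 were lower (0.296%) by edgeR's quasi-likelihood test, with p-values adjusted by Benjamini-Hochberg across the whole tested table. The threshold for a call was 0.05, and every adjusted p below is from this test. Without adjustment 962 genes (7.92%) had a p under 0.05. The called rises had a median log2 fold change of 0.56 and the called falls one of −1.22, while the median over all tested genes was −0.004. Only 1 called gene was higher by at least 2-fold, and 19 were lower by at least 2-fold. The 4 values at 54 °C lay wholly outside the range at 50 °C for 623 genes (5.13%). They lay wholly above it for 29 of the 33 higher genes, against 2.48% of all genes, and wholly below it for 30 of the 36 lower genes, against 2.65%. All 69 called genes had the same direction within replicates 1 and 2 as within replicates 3 and 4. The same libraries chose the called genes, which favours both separation of the groups and a shared direction. The counts of called genes without overlap and with a shared direction are therefore descriptions and no independent check of the calls. The balance of directions depended on scaling: 47.8% of the calls were rises with TMM scaling, and 76.7% were rises (79 higher, 24 lower) when libraries were scaled by their totals alone. Library totals moved the median of all genes to 0.09.

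**Figure D1:**
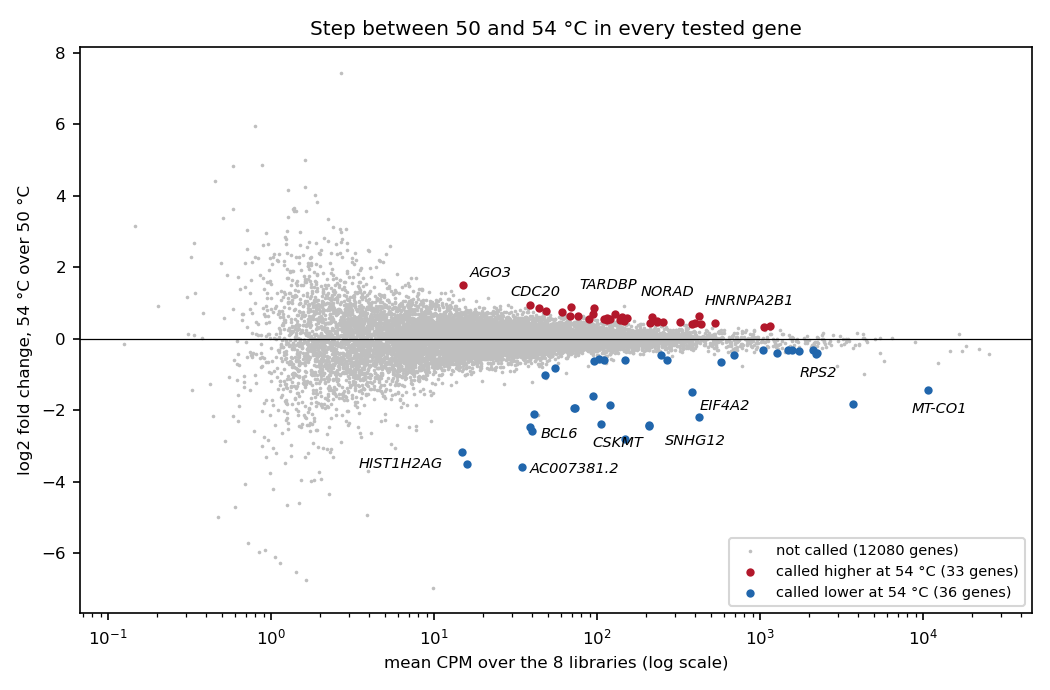
Log2 fold change of 54 over 50 °C against the mean CPM of the 8 libraries (log axis) for 12149 genes, with called genes in red (33 higher) and blue (36 lower). The called falls reach further from 0 than the called rises, and AGO3 is the only called rise of at least 2-fold.

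The genes of hnRNPs and related RNA-binding proteins formed the main group of rises. Of the 42 genes on this list, all measured, 9 were called higher at 54 °C (21.4%, against 0.272% of all genes), 0 were called lower, and 33 could not be called. The list's median log2 fold change was 0.21, against −0.004 over all genes, and 33 of its 42 members had a positive fold change, against 49.4% of all genes. Of 39 genes of the spliceosome core edgeR called 0 (2 at an unadjusted p under 0.05, and 0 with DESeq2 or limma-voom), and of 36 genes of SR proteins and CLK kinases also 0 (3 at an unadjusted p under 0.05, 1 with DESeq2, 0 with limma-voom). Their medians were 0.01 and 0.03. A raised median was not particular to the hnRNP list, since the 50 tested mRNA decay and silencing factors had one of 0.22. Of these, 39 had a positive fold change (78%) and 1 was called higher (2%, against 0.272% of all genes). The difference between these lists and the hnRNP list was not tested.

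TARDBP encodes TDP-43, an RNA-binding protein that represses the use of cryptic exons. It had 100.8, 97.5, 81.3 and 76.4 CPM in the libraries at 54 °C, against 62.1, 61.1, 38.0 and 35.1 CPM at 50 °C. The groups did not overlap, and within each group replicates 1 and 2 were the higher. TARDBP rose by 0.88 ± 0.17 in log2 units (SE, 4 libraries each, 95% interval 0.55 to 1.21, adjusted p = 6.55e-04).

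HNRNPA2B1, which binds RNA for splicing and transport, is one of the more abundant members. Its level was 555, 476, 492 and 521 CPM at 54 °C, against 310, 387, 298 and 312 CPM at 50 °C. All libraries at 54 °C lay above all those at 50 °C, where replicate 2 stood above the other 3. The log2 fold change was 0.65 ± 0.10 (SE, adjusted p = 1.54e-05), and HNRNPA2B1 was called in each replicate pair taken alone.

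The other 7 called members had smaller values. HNRNPA3, a shuttling relative of HNRNPA2B1, averaged 262 ± 20.4 CPM at 54 °C and 173 ± 6.34 CPM at 50 °C (SD, n = 4), a log2 fold change of 0.60 ± 0.11 (SE, adjusted p = 7.72e-04). HNRNPU, a scaffold protein that binds both chromatin and RNA, averaged 603 ± 27.8 and 449 ± 63.7 CPM, with a log2 fold change of 0.43 ± 0.09 (SE, adjusted p = 0.00732). HNRNPD, also known as AUF1, binds AU-rich elements of unstable mRNAs, and its log2 fold change was 0.40 ± 0.10 (SE, adjusted p = 0.0261). HNRNPDL, its paralogue, had 0.41 ± 0.09. The splicing regulators HNRNPH1, HNRNPH3 and HNRNPM had log2 fold changes of 0.46 ± 0.11, 0.56 ± 0.15 and 0.47 ± 0.11. For each of these 7 genes the libraries at 54 °C lay wholly above those at 50 °C.

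Other members were not called. HNRNPH2 had a log2 fold change of 0.72 ± 0.25 (SE, adjusted p = 0.282) and ELAVL1, which encodes the mRNA stabiliser HuR, 0.50 ± 0.16 (adjusted p = 0.203). HNRNPA1 had 0.21 ± 0.10 and HNRNPC −0.10 ± 0.09. The lowest member was MBNL2 at −0.34 ± 0.28. PCBP2 had −0.30 ± 0.12 and HNRNPUL1 −0.27 ± 0.10 (SE, adjusted p = 0.435 and 0.357). HNRNPUL1 was the 1 member with 54 °C wholly below 50 °C (against 2.65% of all genes), while 13 lay wholly above (against 2.48%). The number of called members was 4 without 54 °C replicate 2, 4 without 50 °C replicate 1, 5 without 50 °C replicate 3, and 6 to 9 without any other library; it was 3 without the term for the replicate pair, 1 with replicates 1 and 2 alone, and 3 with replicates 3 and 4 alone. The list's median moved to 0.30 with library totals.

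**Figure D2:**
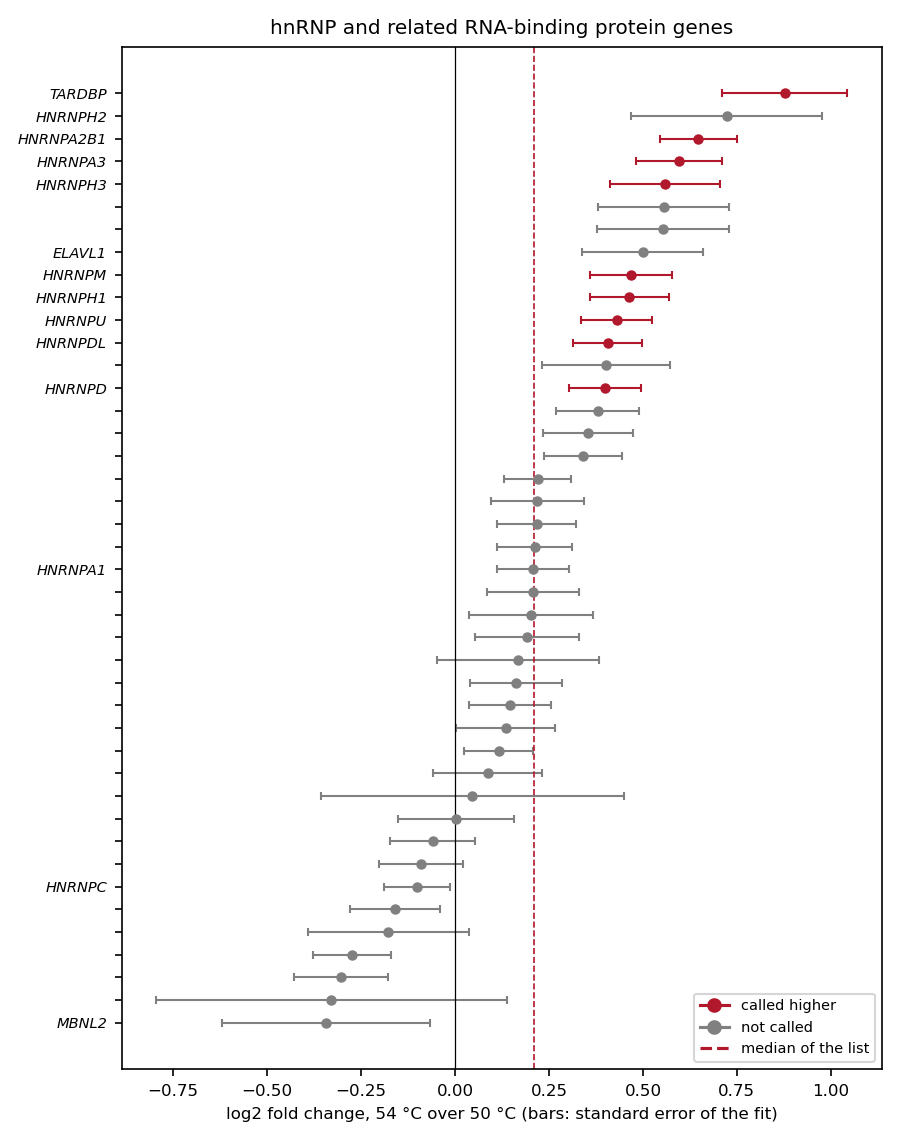
Log2 fold change of 54 over 50 °C with its standard error for 42 genes of hnRNPs and related RNA-binding proteins, called rises in red and the list median of 0.21 as a dashed line. Names are given for the called members and for HNRNPH2, ELAVL1, HNRNPA1, HNRNPC and MBNL2. The called members lie between 0.40 and 0.88, and no member was called lower.

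NORAD is an abundant cytoplasmic long noncoding RNA that binds the PUMILIO repressors of mRNA. It had 152, 171, 154 and 161 CPM at 54 °C, against 89.9, 108, 108 and 92.6 CPM at 50 °C. The groups did not overlap and each was narrow. NORAD rose by a log2 fold change of 0.68 ± 0.13 (SE, adjusted p = 6.42e-04). Of 16 tested regulatory long noncoding RNAs it was the only called rise (6.25%, against 0.272% of all genes), and 2 were called higher with library totals. NEAT1 and MALAT1, which stay in the nucleus, were not called. NEAT1 averaged 169 ± 36.9 CPM at 54 °C and 111 ± 38.5 CPM at 50 °C (adjusted p = 0.104), and MALAT1 4183 ± 546 and 3725 ± 566 CPM (SD, adjusted p = 0.89).

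CDC20 activates the anaphase-promoting complex in mitosis. Its level was 121, 121, 111 and 139 CPM at 54 °C, against 82.3, 68.3, 60.2 and 62.0 CPM at 50 °C. No library of one group reached into the other. The log2 fold change was 0.85 ± 0.15 (SE, adjusted p = 2.35e-04). CDC20 was the only call among 63 genes of G2 and mitosis (1.59%, against 0.272% of all genes called higher), whose median log2 fold change was 0.07. DESeq2 called 4 of them higher, limma-voom 1 and library totals 3. BUB1B, a mitotic checkpoint kinase and the next of them by p, had 0.75 ± 0.23 (SE, adjusted p = 0.139). Of 51 DNA replication genes edgeR called 0 (6 at an unadjusted p under 0.05, 1 with DESeq2 and 0 with limma-voom).

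The other large rises were of single genes with different roles. AGO3, an Argonaute protein that holds microRNAs, had 28.8, 21.2, 20.6 and 18.3 CPM at 54 °C, against 3.68, 9.18, 9.06 and 10.1 CPM at 50 °C. Its libraries did not overlap, and 50 °C replicate 1 was far below the other 3. The log2 fold change was 1.5 ± 0.38 (SE, adjusted p = 0.0374), on a total of 601 counts at 54 °C and 123 counts at 50 °C. AGO3 was not called with limma-voom (adjusted p = 0.0572), after thinning to equal depth (0.0513) or without the term for the replicate pair (0.136). HEXIM1, which with 7SK RNA holds the elongation kinase P-TEFb inactive, averaged 56.5 ± 8.9 CPM at 54 °C and 31.6 ± 10.4 CPM at 50 °C, a log2 fold change of 0.86 ± 0.21 (SE, adjusted p = 0.0277). RTF1, an elongation factor that works with the PAF1 complex, averaged 117 ± 9.63 and 72.4 ± 12.03 CPM, a log2 fold change of 0.69 ± 0.15 (SE, adjusted p = 0.00741).

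LPGAT1, an acyltransferase of lysophospholipids, had a log2 fold change of 0.94 ± 0.23, STRAP, a protein of the SMN complex, 0.78 ± 0.20, and LPP, a LIM protein of focal adhesions, 0.74 ± 0.18 (SE each). LRRC58 had 0.64 ± 0.15 and MAPK1IP1L 0.63 ± 0.16. TARDBP, HNRNPA2B1, NORAD and CDC20 kept their calls when any single library was left out; the other 8 large rises did not. Of the fits that left out 1 library, AGO3, LPP and MAPK1IP1L were called only in that without 54 °C replicate 4, and the adjusted p without any other library ran from 0.0534 to 0.257 for AGO3, from 0.0534 to 0.193 for LPP and from 0.0716 to 0.257 for MAPK1IP1L. LPGAT1 was called without 54 °C replicate 4 or 50 °C replicate 2 only (otherwise adjusted p = 0.058 to 0.17), HEXIM1 without 54 °C replicate 3 or 50 °C replicate 2 only (0.058 to 0.201), and STRAP without 54 °C replicate 4 or 50 °C replicate 4 only (0.0686 to 0.204). RTF1 lost its call without 54 °C replicate 1 (adjusted p = 0.058) or 50 °C replicate 3 (adjusted p = 0.0958). LRRC58 lost it without 54 °C replicate 1 (adjusted p = 0.0716), 50 °C replicate 1 (adjusted p = 0.135) or 50 °C replicate 4 (adjusted p = 0.147).

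BCL6, a zinc finger repressor of transcription, had one of the clearest falls. It had 10.5, 9.38, 9.65 and 15.8 CPM at 54 °C, against 58.4, 60.3, 73.0 and 82.2 CPM at 50 °C. The highest library at 54 °C lay far below the lowest at 50 °C. BCL6 fell by 2.59 ± 0.21 in log2 units (SE, 95% interval −3.01 to −2.18, adjusted p = 2.11e-16), with −2.58 within replicates 1 and 2 and −2.61 within replicates 3 and 4. It was edgeR's only call among 55 tested mRNAs of short-lived transcription regulators (1.82%, against 0.296% of all genes called lower). DESeq2 called 1 and limma-voom 2 of this list, whose median was 0.08. MXD4, a MYC antagonist on that list, had −0.84 ± 0.25 (SE, adjusted p = 0.144). On another list, of 56 zinc finger genes, ZNF277 was the only call (1.79%, against 0.296% of all genes called lower).

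The transcript listed as AC007381.2 had a similar course. It had 3.63, 1.52, 6.7 and 10.5 CPM at 54 °C, against 64.4, 63.5, 66.2 and 59.5 CPM at 50 °C. The groups were far apart, on 141 counts at 54 °C and 976 counts at 50 °C. AC007381.2 fell by 3.58 ± 0.35 in log2 units (SE, adjusted p = 7.39e-06). It is not among the genes of GENCODE v29, so no position or role is given.

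**Figure D3:**
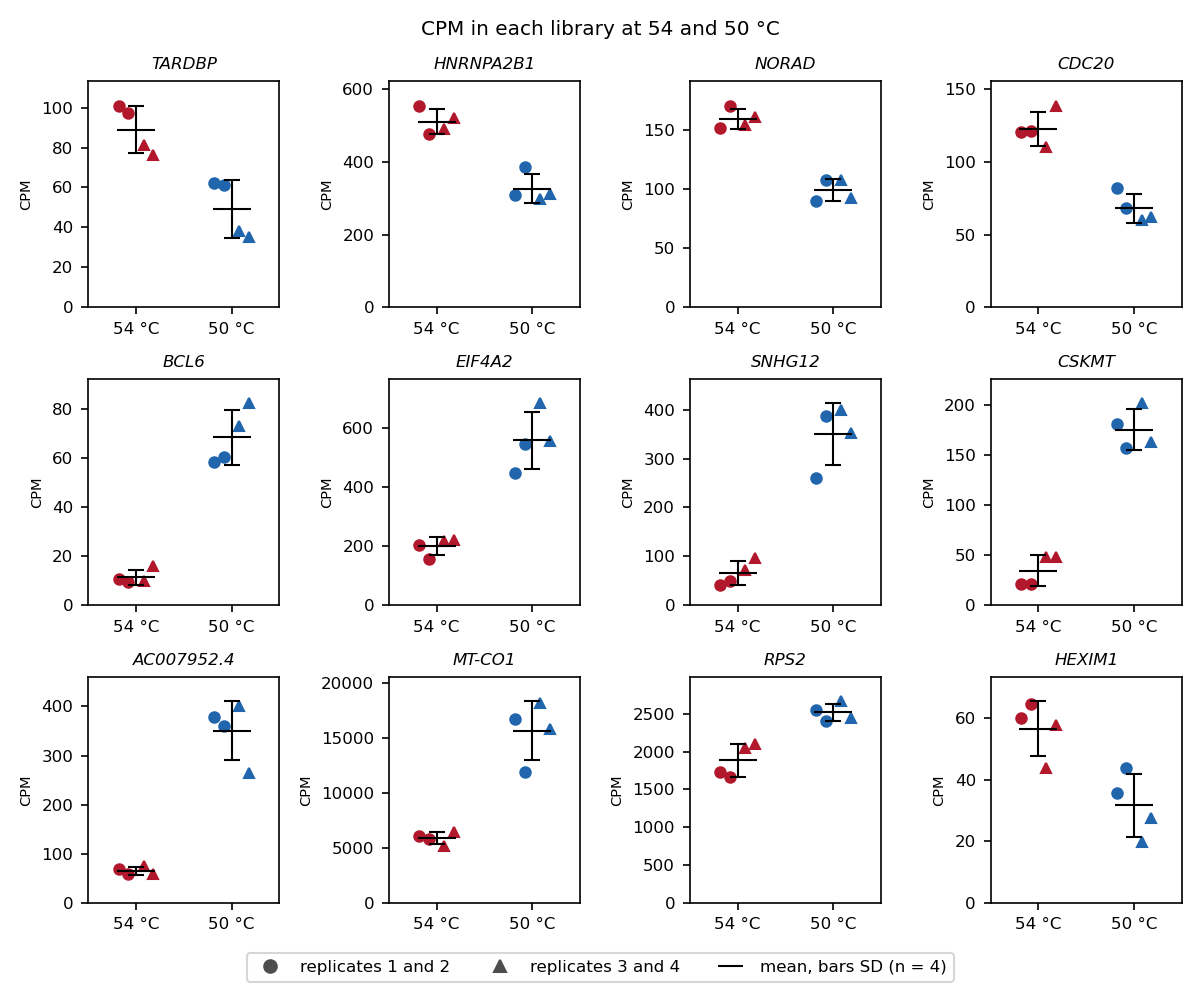
CPM in each library for 12 called genes, 54 °C left of 50 °C, circles for replicates 1 and 2, triangles for replicates 3 and 4, and bars for the mean and SD of 4. No library overlaps between the groups for any of the 12, and most of them were named by a rule that asks for this. TARDBP at 54 °C lies between 76.4 and 100.8 CPM and BCL6 between 9.38 and 15.8 CPM.

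Transcripts that carry snoRNAs or other small RNAs made up much of the falls. Of the 34 called-lower genes found in GENCODE v29, 16 spanned a small RNA annotated as a gene of its own on the same strand (47.1%), against 4 of 33 called-higher genes (12.1%) and 7.96% of all tested genes. Over all 718 genes with such a small RNA and a mean of at least 10 CPM the median log2 fold change was 0.04, and over 7466 genes without one it was −0.002. The snoRNAs of 4 of these transcripts follow, because they are the annotated feature inside genes that fell strongly or are called on the snoRNA host list. Sequences are from GENCODE v29 on GRCh38, 5′ to 3′. Capitals in the C/D box snoRNAs mark TGATGA and the CTGA nearest the 3′ end, and capitals in the H/ACA snoRNAs mark ACA near the 3′ end.
SNORD3D in AC007952.4, chr17:19112419-19112636, minus strand: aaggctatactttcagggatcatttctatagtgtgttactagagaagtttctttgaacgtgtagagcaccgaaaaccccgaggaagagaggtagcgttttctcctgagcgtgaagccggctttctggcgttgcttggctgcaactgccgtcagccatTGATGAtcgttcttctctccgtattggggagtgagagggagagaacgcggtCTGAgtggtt
SNORD5 in TAF1D, chr11:93733228-93733300, minus strand: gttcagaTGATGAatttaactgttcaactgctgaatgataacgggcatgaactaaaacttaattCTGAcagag
SNORA61 in SNHG12, chr1:28579764-28579893, minus strand: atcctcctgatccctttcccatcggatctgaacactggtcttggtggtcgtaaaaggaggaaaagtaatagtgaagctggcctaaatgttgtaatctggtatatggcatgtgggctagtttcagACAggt
SNORA63 in EIF4A2, chr3:186787300-186787431, plus strand: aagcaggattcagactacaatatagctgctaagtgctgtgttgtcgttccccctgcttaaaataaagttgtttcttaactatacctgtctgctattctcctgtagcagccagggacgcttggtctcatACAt
Of 557 snoRNAs inside tested genes, 45.6% hold TGATGA and 35% hold ACA within their last 9 bases, searched on the strand of the snoRNA. The table gives 1 count per gene, so it does not show whether reads fell on a snoRNA or on the host.

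EIF4A2, a helicase of translation initiation whose gene spans 5 annotated snoRNAs, had the smallest p of all falls. It had 204, 158, 218 and 222 CPM at 54 °C, against 450, 546, 685 and 556 CPM at 50 °C. The groups did not overlap. EIF4A2 fell by 1.48 ± 0.12 in log2 units (SE, adjusted p = 4.32e-17), by nearly the same amount within each replicate pair (−1.46 and −1.50). Of 46 translation factors only EIF4A2 and PABPC1, the poly(A)-binding protein, were called lower (4.35%, against 0.296% of all genes). PABPC1 had −0.41 ± 0.08 (SE, adjusted p = 9.19e-04). DESeq2 called 4 lower and 1 higher, and limma-voom 3 lower and 1 higher. The list's median was −0.06.

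SNHG12, a noncoding host of 4 annotated snoRNAs, had 41.9, 50.0, 72.3 and 96.0 CPM at 54 °C, against 259, 387, 400 and 352 CPM at 50 °C. CSKMT, a mitochondrial methyltransferase gene whose first part overlaps SNORA57, had 20.6, 21.2, 48.1 and 47.6 CPM at 54 °C, against 181, 157, 202 and 164 CPM at 50 °C. AC007952.4, which begins with the U3 snoRNA copy SNORD3D, had 69.8, 59.1, 74.9 and 58.6 CPM at 54 °C, against 378, 361, 400 and 264.9 CPM at 50 °C. The groups did not overlap in any of these 3 genes, and within 54 °C replicates 3 and 4 were the higher for SNHG12 and CSKMT. SNHG12 fell by 2.44 ± 0.32 in log2 units (SE, adjusted p = 8.00e-04), CSKMT fell by 2.38 ± 0.23 (adjusted p = 2.16e-12) and AC007952.4 fell by 2.41 ± 0.19 (adjusted p = 3.75e-11). U3 has near-identical gene copies, so the assignment of reads to AC007952.4 is uncertain.

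Of 22 tested snoRNA host transcripts 5 were called lower (22.7%, against 0.296% of all genes) and 0 higher, with a list median of −0.22. The list was chosen with earlier results of these data known, so its share of calls is a description. TAF1D, a subunit of an RNA polymerase I factor and the host of 8 annotated snoRNAs, fell by 0.65 ± 0.10 in log2 units (SE, adjusted p = 1.52e-05). GAS5 had −0.61 ± 0.12 and SNHG15 −0.81 ± 0.21. For TAF1D and GAS5 the groups overlapped, with replicates 3 and 4 the higher at both temperatures. The other 17 hosts were not called, among them ZFAS1 at −0.01 ± 0.10, SNHG16 at 0.03 ± 0.10 and SNHG5 at −0.08 ± 0.09. Outside this list SNHG10, which holds SCARNA13, a guide RNA of Cajal bodies, averaged 15.3 ± 2.14 CPM at 54 °C and 66.2 ± 12.6 CPM at 50 °C (SD), a fall of 2.10 ± 0.34 in log2 units (SE, adjusted p = 7.31e-05). NCL, also outside this list, spans 3 annotated snoRNAs in its introns and was called higher, at 0.33 ± 0.08 (SE, adjusted p = 0.039). Without the term for the replicate pair 2 of the 22 hosts were called, and 4 or 5 were called when any single library was left out.

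Falls of the same kind were seen in genes that overlap other small RNAs. ZNF277, which spans a copy of 7SK RNA, averaged 30.2 ± 8.14 CPM at 54 °C and 117 ± 15.7 CPM at 50 °C (SD), with a log2 fold change of −1.95 ± 0.24 (SE, adjusted p = 1.05e-08). WDR74, which overlaps a copy of the U2 spliceosomal RNA, had −1.85 ± 0.20 (SE, adjusted p = 8.32e-09), and TMEM107, which overlaps the U8 snoRNA SNORD118, had −1.61 ± 0.21 (SE, adjusted p = 8.61e-08). WDR74 and TMEM107 were chosen after their values were seen. RMRP, the RNA of a ribonuclease that cuts ribosomal RNA precursors, was not called at 32.3 ± 18.6 CPM at 54 °C and 65.1 ± 15.1 CPM at 50 °C (SD, adjusted p = 0.752). LINC00324, with no annotated small RNA inside, had 34.2, 23.0, 49.2 and 46.6 CPM at 54 °C, against 336, 239, 243 and 219 CPM at 50 °C. Its groups were far apart, and LINC00324 fell by 2.80 ± 0.32 in log2 units (SE, adjusted p = 1.83e-04). Whether the counting used strand is not given in the sources used here, so reads of a gene and of an antisense neighbour may be mixed.

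Ribosomal protein genes showed small falls. Of 79 tested, 6 were called lower (7.59%, against 0.296% of all genes) and 0 higher, and 12 had a positive fold change (15.2%, against 49.4% of all genes). RPS2 of the small subunit had 1723, 1661, 2048 and 2099 CPM at 54 °C, against 2545, 2406, 2664 and 2448 CPM at 50 °C. The groups did not overlap, and at 54 °C replicates 3 and 4 were the higher. RPS2 fell by 0.42 ± 0.07 in log2 units (SE, adjusted p = 1.60e-04). RPSA, RPS3, RPL12 and RPL38 had log2 fold changes of −0.40, −0.33, −0.31 and −0.35. RACK1, a scaffold protein bound to the small subunit and not on the list, had −0.32 ± 0.08 (SE, adjusted p = 0.0453). The list's median was −0.11, with −0.22 within replicates 1 and 2, −0.02 within replicates 3 and 4, and −0.02 with library totals. RPSA lost its call without 54 °C replicate 1 (adjusted p = 0.0563) or 54 °C replicate 2 (adjusted p = 0.116). The number of called ribosomal protein genes was 2 without each of 54 °C replicates 1, 2 and 3 and without 50 °C replicate 1, 3 without each of 50 °C replicates 3 and 4, 4 without 50 °C replicate 2, and 2 with library totals. DESeq2 and limma-voom each called 14 lower, while 1 was called without the term for the replicate pair, 2 with replicates 1 and 2 alone and 0 with replicates 3 and 4 alone. Processed copies of ribosomal protein genes share their sequence, so counts of single members are uncertain.

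Messages of the ribosome and its helpers begin with a pyrimidine run (the TOP motif), which ties their translation to growth signals. Start sites of lower genes are shown because 3 of the 4 called ribosomal protein genes with a promoter in the table, and some snoRNA hosts, begin near such a run. Each line is 30 bases of the RefSeq promoter table on GRCh38.p14, 5′ to 3′ on the strand of the gene, with the longest run of C and T near the annotated start in capitals.
RPS3, chr11:75399503-75399532, plus strand: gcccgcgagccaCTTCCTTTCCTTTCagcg
RPSA, chr3:39406705-39406734, plus strand: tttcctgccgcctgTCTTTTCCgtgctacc
RPL38, chr17:74203663-74203692, plus strand: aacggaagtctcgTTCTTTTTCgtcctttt
RACK1, chr5:181243892-181243921, minus strand: ggggggCTTTTCTCTCTCTCTTTCactgca
SNHG12, chr1:28581859-28581888, minus strand: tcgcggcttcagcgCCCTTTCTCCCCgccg
TAF1D, chr11:93741481-93741510, minus strand: acggaaatagccaaCCCTTTTCTTCCgcac
EIF4A2, chr3:186783562-186783591, plus strand: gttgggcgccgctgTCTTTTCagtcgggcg
A run of at least 8 pyrimidines within 5 bases of a start was found for 8 of 19 called-lower genes with a promoter in the table (42.1%), for 6 of 31 called-higher genes (19.4%) and for 16.2% of all tested genes with one. It was found for 82.5% of the tested ribosomal protein genes with a promoter, most of which were not called. EIF4A2 has a run of 7 and is not among the 8. Not shown are PDLIM1 (run of 10) and ZNF277 (18). Lower genes with shorter runs are also not shown, among them RPL12 and CSKMT (6 each), SNHG10 (4), GAS5 (3) and BCL6 (5 and 3 at its start sites).

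Mitochondrially encoded mRNAs were lower in part. Of 13, MT-CO1 and MT-ND6 were called lower (15.4%, against 0.296% of all genes), 1 had a positive fold change, and the list's median was −0.39. MT-CO1, a subunit of cytochrome c oxidase, had 6038, 5755, 5204 and 6475 CPM at 54 °C, against 16670, 11870, 18160 and 15780 CPM at 50 °C. The groups did not overlap, and replicate 2 was the lowest at 50 °C. MT-CO1 fell by 1.42 ± 0.23 in log2 units (SE, adjusted p = 0.00741). MT-CO3, another subunit of the same enzyme, averaged 17080 ± 877 CPM at 54 °C and 19670 ± 3634 CPM at 50 °C (SD, adjusted p = 0.814). The 13 mRNAs took 12.7 to 14.7% of the counts at 54 °C and 14.6 to 19.1% at 50 °C. MT-ND6, which is encoded on the other strand from most of these genes, had a log2 fold change of −1.94 ± 0.39 (SE, adjusted p = 0.0423) and was called without 54 °C replicate 4 but not without any other single library (adjusted p = 0.0531 to 0.178). The count of called members was 1 without each of 54 °C replicates 1, 2 and 3 and 50 °C replicates 1, 3 and 4, and 1 without the term for the replicate pair. It was 3 with limma-voom, 6 with DESeq2 and 8 when the 8 libraries were fitted alone.

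The MTRNR2L genes are nuclear copies of the mitochondrial 16S ribosomal RNA gene, so their reads may come from the mitochondrial RNA. MTRNR2L1 averaged 151 ± 13.8 CPM at 54 °C and 696 ± 227 CPM at 50 °C (SD), with a log2 fold change of −2.20 ± 0.22 (SE, adjusted p = 3.60e-05). The call of MTRNR2L1 ended when the 8 libraries were fitted alone (adjusted p = 0.0565). MTRNR2L10 had −3.17 ± 0.56 (SE, adjusted p = 1.60e-04), on 2.28 to 4.33 CPM at 54 °C and 21.6 to 35.7 CPM at 50 °C. MTRNR2L12, chosen after its values were seen, had −1.81 ± 0.16 at 1647 ± 301 and 5775 ± 854 CPM (SD). The groups did not overlap in MTRNR2L1, MTRNR2L10 or MTRNR2L12.

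Replication-dependent histone mRNAs normally lack a poly(A) tail, so a kit primed on poly(A) counts only rare tailed forms. All 21 tested had a negative log2 fold change, with a median of −1.27, and 14 had no overlap with 54 °C below, against 2.65% of all genes. Only 2 were called (9.52%, against 0.296%). HIST1H2AG, a histone H2A gene, had 2.33, 3.3, 2.62 and 1.33 CPM at 54 °C, against 24.5, 25.3, 26.7 and 40.4 CPM at 50 °C. The groups were far apart, on 66 counts at 54 °C and 445 counts at 50 °C. HIST1H2AG fell by 3.51 ± 0.58 in log2 units (SE, adjusted p = 4.25e-05). The linker histone gene HIST1H1E had −1.01 ± 0.26 (SE, adjusted p = 0.0374) and was called without 54 °C replicate 3 only (otherwise adjusted p = 0.0564 to 0.193). HIST1H4C had −0.75 ± 0.24 (SE, adjusted p = 0.307). The call count was therefore 1 or 2 when any single library was left out. DESeq2 called 1 and limma-voom 4 of the 21 lower, and DESeq2 gave HIST1H2AG no adjusted p. The list's median was −1.56 without 54 °C replicate 3.

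**Figure D4:**
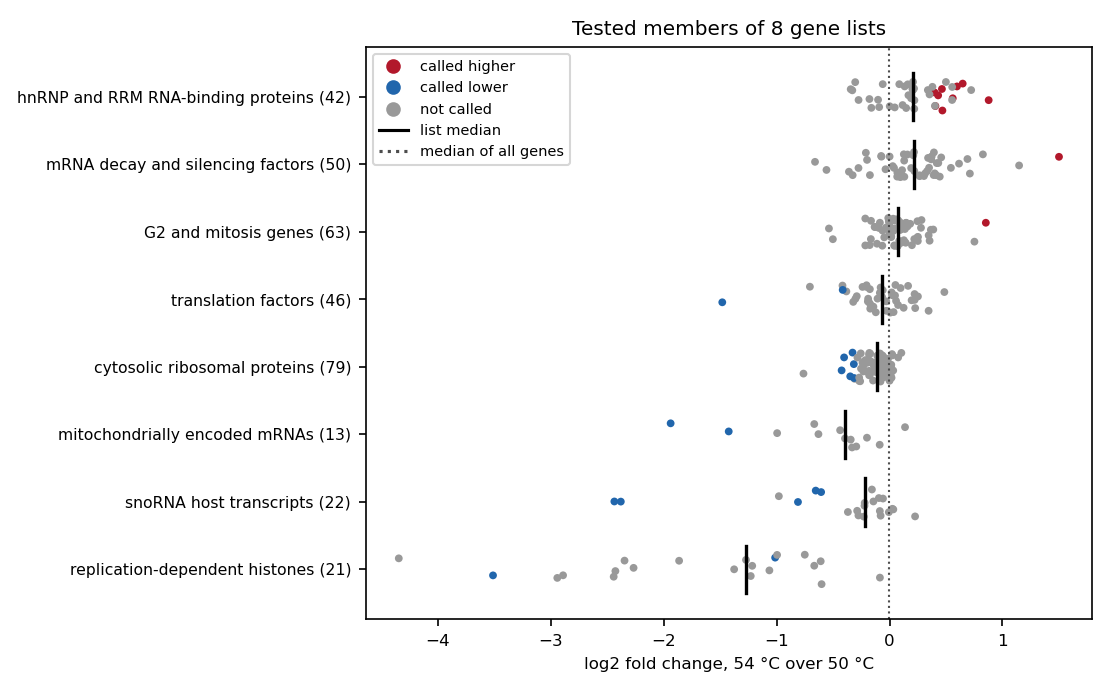
Log2 fold change of 54 over 50 °C for the tested members of 8 gene lists (number in brackets), with called rises in red, called falls in blue, list medians as black bars and the median of all genes as a dotted line. The hnRNP list lies mostly right of 0 with a median of 0.21, and the histone list wholly left of 0 with a median of −1.27.

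Genes of the heat shock response were not called at this step. Of 37 tested chaperone genes edgeR called 0 (2 at an unadjusted p under 0.05, 1 with DESeq2 and 0 with limma-voom), and their median log2 fold change was 0.02. HSPA1A, the main inducible HSP70 gene, had 25.2, 17.6, 29.8 and 21.1 CPM at 54 °C, against 16.04, 13.9, 33.7 and 20.2 CPM at 50 °C. The groups overlapped, and the log2 fold change was 0.17 ± 0.28 (SE, 95% interval −0.43 to 0.77, adjusted p = 0.973). HSPA1B, its near-identical copy, had −0.06 ± 0.16, DNAJB1 −0.15 ± 0.12 and HSPH1 0.03 ± 0.12. HSPA6, a strictly inducible HSP70 gene, had 0 counts in each library at 54 °C, against 0, 0, 17 and 11 counts at 50 °C. At 46 °C HSPA1A averaged 1760 ± 325 CPM and HSPA6 1142 ± 405 CPM (SD).

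Immediate-early, MYC and immune genes gave few calls. FOSL1, an AP-1 subunit, was the only call among 31 immediate-early genes (3.23%, against 0.296% of all genes called lower), with −0.47 ± 0.12 (SE, adjusted p = 0.0393). It was called without 50 °C replicate 3 but not without any other single library (adjusted p = 0.055 to 0.539). EGR1 had −0.06 ± 0.37, ATF3 −0.78 ± 0.48, and FOS 0, 10, 0 and 7 counts at 54 °C, against 16, 17, 0 and 1 counts at 50 °C. MYC had 38.1, 29.4, 35.6 and 37.1 CPM at 54 °C, against 37.3, 22.3, 24.7 and 16.8 CPM at 50 °C. The groups overlapped through 50 °C replicate 1, and the log2 fold change was 0.45 ± 0.30 (SE, adjusted p = 0.813). MAX, the partner of MYC, had 0.10 ± 0.15. MYC and immune genes are given because c-MYC and immunotherapy stand in the title of the series.

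Among 44 tested ribosome biogenesis genes known to respond to MYC, NCL (nucleolin) and NOP16 were called higher (4.55%, against 0.272% of all genes), with a list median of 0.01. DESeq2 called 4 higher and limma-voom 3. NCL had 0.33 ± 0.08 (SE, adjusted p = 0.039), and was called without 54 °C replicate 4 but not without any other single library (adjusted p = 0.0609 to 0.218). NOP16 had 0.54 ± 0.14 (SE, adjusted p = 0.0451) and lost its call without any single library (adjusted p = 0.0609 to 0.232). Of 27 checkpoint and antigen presentation genes edgeR called 0 (2 at an unadjusted p under 0.05, 0 with DESeq2 or limma-voom). CD274, which encodes PD-L1, had −0.10 ± 0.32 at 20.2 ± 7.58 CPM at 54 °C and 21.7 ± 9.1 CPM at 50 °C, and CD47, a signal against phagocytosis, had 0.03 ± 0.20. Of 35 NF-kB, cytokine and interferon genes and of 33 apoptosis regulators edgeR called 0 and 0 (3 and 2 at an unadjusted p under 0.05, 0 with DESeq2 or limma-voom). HMOX1, the heme-degrading enzyme, had −1.42 ± 0.58 (SE, adjusted p = 0.435).

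The actin-linked YAP and SRF targets gave 1 call in each direction among 34 genes (2.94% each, against 0.272% of all genes higher and 0.296% lower). TEAD1, the DNA-binding partner of YAP, had 0.57 ± 0.14 (SE, adjusted p = 0.0374), and lost its call without 54 °C replicate 1 (adjusted p = 0.181), 54 °C replicate 2 (0.337), 50 °C replicate 1 (0.121), 50 °C replicate 2 (0.114) or 50 °C replicate 4 (0.178). ANKRD1, a stress-induced target, had −0.45 ± 0.10 (SE, adjusted p = 0.0122) with overlapping groups. Its call was lost without 54 °C replicate 3 (adjusted p = 0.107), 54 °C replicate 4 (0.0739), 50 °C replicate 1 (0.176) or 50 °C replicate 4 (0.055), and with library totals. Of the remaining lists, 0 of 36 proteasome, 0 of 66 nuclear-encoded oxidative phosphorylation, 0 of 22 endoplasmic reticulum chaperone, 0 of 19 integrated stress response, 0 of 24 NRF2, heme and iron, 0 of 35 glycolysis and hypoxia and 0 of 24 cholesterol synthesis genes were called by edgeR. Their counts at an unadjusted p under 0.05 were 4, 5, 2, 0, 5, 5 and 3, and DESeq2 called 2 and limma-voom 1 of the glycolysis and hypoxia genes and 0 of the others. The glycolysis and hypoxia genes had a median of −0.125, and 10 had a positive fold change (28.6%, against 49.4% of all genes). At 54 °C 6 of these 35 lay wholly below 50 °C (against 2.65% of all genes) and 1 wholly above (against 2.48%). AGO3 was edgeR's only call among 50 mRNA decay and silencing factors (2%, against 0.272% of all genes called higher). On this list 9 had an unadjusted p under 0.05, 0 were called with DESeq2 or limma-voom, and the median was 0.22. DESeq2 gave AGO3 no adjusted p. CNOT6, a deadenylase on the list, had 0.83 ± 0.27 (SE, adjusted p = 0.206).

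Set beside the other conditions, the called genes differed in where 54 °C stood. All 33 called rises had their lowest mean at 50 °C among the 5 conditions, against 21.9% of all tested genes, and 30 of the 36 called falls had their highest mean there, against 23.1%. The 50 °C libraries also chose these genes, so both counts are descriptions. TARDBP averaged 99.5 ± 2.82 CPM without treatment, 94.8 ± 24.1 CPM with nanoparticles alone, 70.3 ± 3.73 CPM at 46 °C, 49.0 ± 14.5 CPM at 50 °C and 89.0 ± 11.97 CPM at 54 °C (SD, n = 4). HNRNPA2B1 lay between 461 ± 37.3 and 487 ± 67.7 CPM in the 3 groups below 50 °C, within their SDs, and at 327 ± 40.4 CPM at 50 °C and 511 ± 34.9 CPM at 54 °C. NORAD averaged 184 ± 29.9, 182 ± 21.6, 139 ± 6.21, 99.4 ± 9.49 and 159 ± 8.47 CPM in the same order, and CDC20 104 ± 16.5, 112 ± 8.01, 70.9 ± 10.2, 68.2 ± 10.0 and 123 ± 11.7 CPM. The mean of TARDBP at 54 °C lay within 1 SD of that with nanoparticles alone. A difference between 54 °C and any group other than 50 °C was not tested.

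The called falls differed in their course over the conditions. EIF4A2 averaged 191 ± 15.2 CPM without treatment, 198 ± 18.2 CPM with nanoparticles alone, 243 ± 28.2 CPM at 46 °C, 559 ± 96.3 CPM at 50 °C and 200 ± 29.7 CPM at 54 °C (SD, n = 4), so its level at 54 °C was within 1 SD of that with nanoparticles alone. SNHG12 averaged 29.6 ± 8.71, 36.6 ± 4.95, 32.1 ± 16.3, 349 ± 63.5 and 65.0 ± 24.3 CPM in the same order, and CSKMT 17.6 ± 6.06, 18.4 ± 2.35, 17.5 ± 3.25, 176 ± 20.1 and 34.4 ± 15.6 CPM. BCL6 differed: it averaged 90.1 ± 36.0, 91.2 ± 13.2, 96.0 ± 7.85, 68.5 ± 11.2 and 11.3 ± 3.03 CPM, lowest at 54 °C. AC007381.2 averaged 87.6 ± 29.5, 92.1 ± 19.2, 90.9 ± 12.6, 63.4 ± 2.84 and 5.59 ± 3.9 CPM. Of the 36 called falls, 11 had their lowest mean at 54 °C (30.6%, against 16.2% of all tested genes), among them BCL6, AC007381.2, RPS2, RPS3, RPSA, RPL38 and MT-ND6. RPS2, RPS3, RPSA and RPL38 were nevertheless within 1 SD of an unheated group there. RPSA averaged 1099 ± 142 CPM at 54 °C and 1100 ± 95.5 CPM with nanoparticles alone (SD). RPS3 averaged 1861 ± 134 CPM at 54 °C and 1894 ± 209 CPM without treatment. AC010624.5, absent from GENCODE v29, was highest at 46 °C with 714 ± 120 CPM, and averaged 65.1 ± 36.4 CPM at 50 °C and 12.2 ± 5.27 CPM at 54 °C. Its step of −2.48 ± 0.49 (SE, adjusted p = 0.0374) was called without 50 °C replicate 2 but not without any other single library (adjusted p = 0.057 to 0.157). In bulk samples fewer cells with a transcript and less RNA per cell cannot be told apart.

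**Figure D5:**
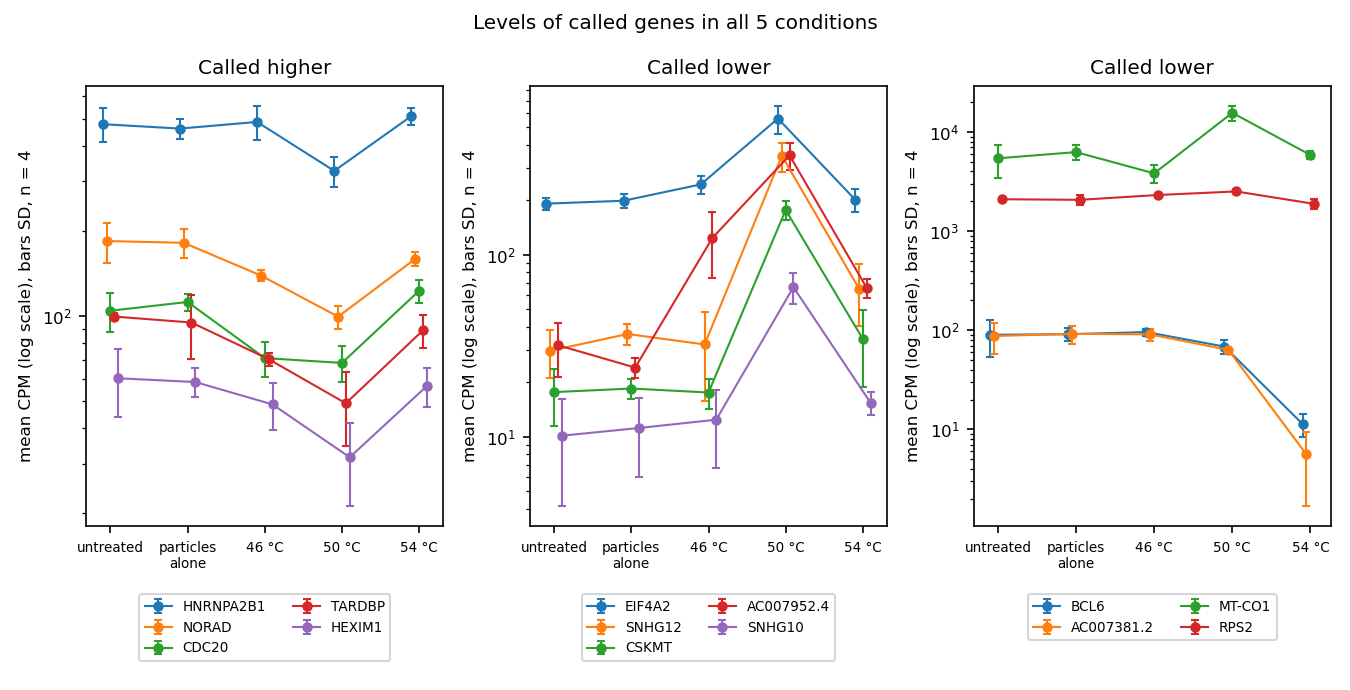
Mean CPM (log axis) with SD over 4 libraries of 5 called rises (left) and 9 called falls (middle and right) for the 5 conditions, with untreated cells at the left and 54 °C at the right of each panel. The rises dip at 50 °C, the falls in the middle panel peak there, and BCL6 and AC007381.2, whose points nearly coincide up to 50 °C, are lowest at 54 °C with 11.3 and 5.59 CPM.

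Called rises and falls also differed in their transcripts. The median 3′ untranslated region was 1837 bases for called rises, 486 bases for called falls and 1134 bases for all tested genes, and the median GC content of these regions was 35.7, 41.4 and 41.9%. Such a region was found for 32 of the 33 rises, 26 of the 36 falls and 11189 of the 12149 tested genes. The element ATTTA, found in many unstable mRNAs, occurred 2.50 times per 1000 bases in called rises, 1.61 times in called falls and 1.68 times in all tested genes (medians, strand of the gene). In a part of the tested genes the median log2 fold change was 0.02 where the 3′ untranslated region held under 35% GC (2003 genes), 0.09 at 35 to 40% (1549 genes) and −0.15 where it held at least 60% (489 genes). These bins do not hold all 11189 tested genes with such a region. Under 35% GC the median was 0.06 within replicates 1 and 2 and −0.01 within replicates 3 and 4. At 60% GC or more it was −0.18 and −0.13. By length, the median within replicates 1 and 2 was −0.09 for regions of 50 to 250 bases and 0.15 for those from 4000 bases. Within replicates 3 and 4 the medians of the same bins were 0.02 and 0.01. These are descriptions with no test, since genes are not replicates.

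Whether the step differed between replicates 1 and 2 and replicates 3 and 4 was tested for every gene. This test called 0 of 12149 genes with edgeR, with 549 at an unadjusted p under 0.05 (4.52%), 3 with DESeq2 and 2 with limma-voom. Within replicates 1 and 2 there were 6 genes higher (0.0494%) and 21 lower (0.173%), and within replicates 3 and 4 there were 5 higher (0.0412%) and 28 lower (0.23%). Thinning every library to the smallest total of the series gave 30 higher and 34 lower.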

How the data were processed

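Poly(A)-primed 3′ libraries (QuantSeq 3′ mRNA-Seq V2 FWD, a kit that marks strand) were made from 20 samples, per the labels' protocols. For each gene and sample the authors deposited an estimated count. STAR, Salmon and the build GRCh38 are named in the submitters' processing notes. Versions, annotation, strand setting and use of molecular identifiers: not given in the sources used here. Between 1.74 and 2.9% of a library's values were not whole, and counts were rounded.

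Genes were tested with edgeR 4.0.16 (R 4.3.3) by robust quasi-likelihood fits of 5 group means and a replicate pair term over 20 libraries, with TMM scaling. A minimum count of 10 and total of 15 left 12149 of 36601 genes, with at least 99.67% of each library's counts. CPM values are TMM-scaled, except the sums of cell markers, which were scaled by library totals alone. Intervals cover 95%. Replicates correlated at 0.904 to 0.942 in log2 CPM, and a chi-square comparison of their counts gave 8.16 to 23.1 per gene, so no library was taken for a copy of another. PCR copies are no independent molecules, and depth therefore limits counting error only. DESeq2 1.42.0, limma-voom (limma 3.58.1), other scalings, filters, thinning and left-out libraries were alternatives. The fit was checked on simulated counts with known changes. These had the same dispersion for every gene and no replicate pair effect, so the check does not bear on the pair term.

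Members and lists were chosen with earlier results of these data known. Named genes are the 12 largest called rises and 12 largest called falls with a mean of at least 10 CPM, no overlap between groups and one direction in both replicate pairs. Added were BCL6, CDC20, TARDBP, HNRNPA2B1, NORAD, from each list with a call the 2 genes of smallest p, and fixed stress, MYC and immune genes. Called members of the lists described are also given, except 1 ribosomal protein gene that is not reported here. Where a symbol had several identifiers, the one with the most counts was used. Positions and small RNAs are from GENCODE v29, and start sites from RefSeq on GRCh38.p14; the authors' annotation may differ.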

Additional observations from a re-analysis of the deposited data

Results flagged for a closer look

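Single libraries stood apart from the other 3 of their group in 9 of the 148 groups of 4 values examined, and chance flags about 1 group in 20. The groups were those of the 59 named genes, of the library totals and of the summed CPM of each list with a call, and all 9 belong to named genes. A library is listed where its gap to the nearest other exceeds the 95% critical value of Dixon's test.

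At 54 °C replicate 4 stood apart in 4 genes. BCL6 had 15.8 CPM in it, against 9.38 to 10.5 CPM in the other 3. MAPK1IP1L had 69.9 CPM, against 97.7 to 102 CPM in the others. CNOT6 had 20.1 CPM, against 35.6 to 38.3 CPM, and MXD4 had 16.6 CPM, against 23.6 to 25.02 CPM. EGR1 stood apart in replicate 2 at 54 °C, with 27.6 CPM against 13.96 to 16.1 CPM in the others.

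At 50 °C AGO3 had 3.68 CPM in replicate 1, against 9.06 to 10.1 CPM in the other 3. HNRNPA2B1 had 387 CPM in replicate 2 (386.5 before rounding), against 298 to 312 CPM. HMOX1 had 6.21 CPM in replicate 2 (6.205 before rounding), against 14.1 to 14.7 CPM. HIST1H2AG had 40.4 CPM in replicate 4, against 24.5 to 26.7 CPM. In BCL6, HNRNPA2B1 and HIST1H2AG the library that stood apart lay clear of all libraries of the other temperature.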

How the results depend on the processing

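Called rises numbered 33 and called falls 36. Without the replicate pair term they were 7 and 17, and 24 of the 69 calls were also made there. Rises were 6 within replicates 1 and 2, 5 within replicates 3 and 4, 79 with library totals and 74 with DESeq2. Falls were 21 within replicates 1 and 2, 60 with the 8 libraries alone, 79 with DESeq2 and 75 with limma-voom. DESeq2 made 64 and limma-voom 68 of the 69 calls. Of the 37 called named genes DESeq2 called 32, and the others, such as AGO3, HIST1H2AG and MTRNR2L10, had no adjusted p in it. Leaving out 1 library gave 9 to 32 rises: 13, 9 and 18 without 54 °C replicates 1, 2 and 3, and 11, 15 and 17 without 50 °C replicates 1, 3 and 4. It gave 21 to 33 falls, with 21 and 23 without 50 °C replicates 1 and 4. Genes whose step differed between the pairs numbered 0 with edgeR, 3 without a filter, 3 with DESeq2, 2 with limma-voom and 0 to 1 when 1 library was left out. The cause of these differences was not tested. The other alternatives kept each count within 1.5 times its value. No call turned its direction under any alternative run, and 20 of the 37 called named genes kept the call without any single library. Under every alternative that gave them an adjusted p, 10 kept the call: 18 lost it without the pair term, 20 within replicates 1 and 2 and 18 within replicates 3 and 4. List medians that moved by more than the spread between replicates, beside those given above, were those of the regulatory long noncoding RNAs (0.17, 0.06 within replicates 3 and 4, 0.26 with library totals), immediate-early genes (−0.14, −0.06 within replicates 3 and 4, −0.05 with library totals, −0.19 with thinning, −0.22 without 54 °C replicate 2), histones (−1.27, −1.56 without 54 °C replicate 3) and short-lived regulators (0.08, −0.03 within replicates 3 and 4, 0.17 with library totals).

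The replicate block (numbers 1 to 4 in place of the pair term) gave 32 rises and 36 falls, and ended the calls of AC010624.5 and MT-ND6. Deviations from the group means correlated between same-numbered libraries at 0.121, 0.148, 0.126 and 0.097, and not every library correlated best with its own number, so the numbers were not taken to pair the samples. Genes with few counts, such as HSPA6 and FOS, are limited by depth.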
